A study of Homo sapiens with 8 samples.

Results

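The comparison set the K562 line carrying an inducible SF3B1-K700E transgene against the K562 line carrying an inducible wild-type SF3B1 transgene (WT), with both doxycycline states of each line pooled and doxycycline kept as a term of the fit. All 8 libraries of the series entered, chosen by their titles: 4 of the K700E line (2 induced and 2 uninduced) and 4 of the WT line (2 induced and 2 uninduced). Induced cells had received doxycycline at 1 ug/ml over 48 h, and uninduced cells had not. All 8 libraries came from K562 total RNA depleted of ribosomal RNA. K562 cells come from a chronic myeloid leukaemia in blast crisis, carry the BCR-ABL fusion and express embryonic and fetal globins. The labels name neither the promoter behind the transgene nor whether a line was 1 clone, and nothing in them says that replicates 1 and 2 came from separate cultures. The p-values therefore measure the spread between these libraries, which may be technical, and a difference between the lines cannot be told apart from a difference between the cells from which each line was made.

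SF3B1 is the largest protein of the SF3B complex, the part of the U2 small nuclear ribonucleoprotein that holds the branch point of an intron. Mutations such as K700E recur in myelodysplastic syndromes with ring sideroblasts and are known for the use of cryptic acceptor sites shortly upstream of the usual one. Several transcripts with such acceptors are degraded, so that levels of genes as well as isoforms have been studied. Holding a difference to 4 libraries a side asks which features separate the lines whether or not the transgene was switched on.

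The files gave abundance as FPKM, fragments scaled to transcript length and library depth, with no read counts, so depth is known only through the coverage that 1 FPKM stands for, from 3.29 to 4.77 between libraries. A gene value was the sum of its transcripts after scaling between libraries (factors 0.979 to 1.03). Of 23488 genes, 11359 had a mean of at least 1 FPKM and were tested, and 2586 of these were listed at 0 in 1 library or more. Defining markers of K562 were present in every library: BCR, the partner of ABL1 in the fusion, lay between 39.2 and 72.3 FPKM in K700E and between 44.9 and 108 FPKM in WT. GATA1 and the fetal and embryonic globin genes HBG1 and HBZ were also above 0 in all 8 libraries and are described with the erythroid genes. Libraries of the same line but the other doxycycline state correlated at a mean r of 0.757, libraries of the same group at 0.753 and libraries of the other line at 0.748, over the log2 values of the tested genes. The first principal component, with 19.7% of the variance, set the WT uninduced replicate 2 library apart at 74.1, with WT induced replicate 2 next at 16.6 and the other 6 below 0. The second, with 16.4%, set K700E induced replicate 1 apart at 62.4, and the third, with 16.2%, set WT induced replicate 2 apart at -64.9.

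SF3B1 itself did not separate the lines. Its level was 29.0 and 39.4 FPKM in induced K700E and 33.6 and 31.0 FPKM in uninduced K700E, against 36.9 and 27.2 FPKM in induced WT and 38.1 and 31.7 FPKM in uninduced WT (replicates 1 and 2 in each pair). The groups overlapped, at 33.2 ± 4.52 FPKM in K700E and 33.5 ± 5.05 FPKM in WT (SD, n = 4 each). The log2 fold change was -0.01 (SE 0.25, limma adjusted p 0.996), and its sign depended on which library was left out. The induced library was above the uninduced one in replicate 2 of K700E. It was below in replicate 1 of K700E and in both replicates of WT. Whether transgene reads enter these values was not tested. A total per gene cannot tell mutant from wild-type transcripts.

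Of the 11359 genes tested, 3 passed limma's adjusted threshold of 0.05, which is 0.0264%: 1 was higher (0.0088%) and 2 were lower (0.0176%) in K700E. All 3 were listed at 0 in all 4 libraries of one line and above 0 in all 4 of the other, so no fold is given. DAK, which encodes triokinase, the kinase of dihydroxyacetone and glyceraldehyde (chromosome 11, 61100654 to 61116231 on hg19, plus strand), was listed at 0 in all 4 K700E libraries, against 22.8 and 18.0 FPKM in induced WT and 25.05 and 22.4 FPKM in uninduced WT (limma adjusted p 0.0108). MYEOV2, whose product COPS9 is the smallest subunit of the COP9 signalosome (chromosome 2, 241065980 to 241075764 on hg19), was likewise listed at 0 in all 4 K700E libraries, against 18.6 and 22.8 FPKM in induced WT and 20.5 and 30.5 FPKM in uninduced WT (limma adjusted p 0.0108). LOC81691, which RefSeq calls REXO5 under the same gene number and which encodes an RNA exonuclease (chromosome 16, 20817767 to 20860990 on hg19, plus strand), was at 20.8 and 17.6 FPKM in induced K700E and 16.1 and 29.0 FPKM in uninduced K700E, and was listed at 0 in all 4 WT libraries (limma adjusted p 0.0119). The lines did not overlap for these genes in either doxycycline state, which follows from the values that gave the calls and adds no support. Their interactions with doxycycline ran from -0.17 to 0.28 on the log2 scale (SE 1.08 to 1.13, limma adjusted p 0.999). With SEs of that size they cannot show that the difference was the same in both states. When each library in turn was left out, DAK and MYEOV2 were called in 2 of 8 fits and LOC81691 in 0, with adjusted p of 0.0413 to 0.0936 for the first pair and 0.0615 to 0.13 for LOC81691. In the induced libraries alone limma called 2 other genes, the short RNAs MIR4461 and SNAR-A7. With reference transcripts only DAK gave way to PUSL1, and DAK was then listed at 0 in uninduced WT replicate 1 too. Its 25.05 FPKM there thus came from assembled transcripts. With fragment numbers in place of FPKM MYEOV2 was not called (log2 difference -4.41, limma adjusted p 0.469). Among genes with a mean of 5 FPKM or more limma called 0, at adjusted p 0.145 for DAK and MYEOV2 and 0.161 for LOC81691. The calls of DAK and MYEOV2 held without uninduced K700E replicate 1 and without induced K700E replicate 2, and ended on leaving out any of the other 6 libraries.

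The sequences just before the RefSeq start of these 3 genes are shown because they are where such an on-or-off difference could be followed up. They are 150 bases each, from RefSeq on GRCh38.p14, a later build than the files' hg19, with CG dinucleotides in capitals.
DAK (TKFC), chr11:61333078-61333227, plus strand: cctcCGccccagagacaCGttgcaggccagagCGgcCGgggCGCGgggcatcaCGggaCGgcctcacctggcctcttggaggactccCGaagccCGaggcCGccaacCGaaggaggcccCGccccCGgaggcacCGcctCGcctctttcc
MYEOV2 (COPS9), chr2:240136348-240136497, minus strand: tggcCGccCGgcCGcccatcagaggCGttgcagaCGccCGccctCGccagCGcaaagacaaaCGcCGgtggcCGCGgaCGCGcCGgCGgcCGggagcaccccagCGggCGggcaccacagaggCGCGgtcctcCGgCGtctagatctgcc
LOC81691 (REXO5), chr16:20806377-20806526, plus strand: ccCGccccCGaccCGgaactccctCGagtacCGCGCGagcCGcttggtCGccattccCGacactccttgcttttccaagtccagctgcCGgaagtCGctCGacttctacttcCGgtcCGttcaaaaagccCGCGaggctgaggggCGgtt
CG counted in the 250 bases before the start was 27 for DAK, 28 for MYEOV2 and 28 for LOC81691, where the median over 35116 promoters was 11. As many or more were found in 17.7% of promoters for DAK and in 15.9% for MYEOV2 and LOC81691. The promoters compared were not limited to the genes tested here. No methylation or binding was measured here, so these stretches are a description only.

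A value of 0 in these files can be a matter of how reads were assigned. Among the 3758 tested genes with a mean of at least 20 FPKM, 163 were listed at 0 in some library, whereas of 154 genes for cytosolic ribosomal proteins and the respiratory chain none was. DDB1, on the other strand, overlaps the start of DAK with its own start and had 73.4 to 107 FPKM in K700E and 59.1 to 93.6 FPKM in WT, with overlap. CYBASC3, on the other strand, overlaps the end of DAK with its own end and was listed at 0 in induced replicate 1 of both K700E and WT. ERI2, on the other strand, overlaps the start of LOC81691 with its own start and was listed at 0 in 1 K700E library (uninduced replicate 2) and in both WT libraries of replicate 1. The part of such overlaps in the 3 calls was not tested. When only the 8773 genes above 0 in all libraries were tested, a set that leaves out the 3 called genes, limma called 0, with 538 at an unadjusted p under 0.05. In all, 15 genes were at 0 throughout one line and above 0 throughout the other, 8 of them at 0 in K700E and 7 at 0 in WT. Those past no threshold included ORMDL2, a regulator of sphingolipid synthesis (5.82 to 25.04 FPKM in K700E, listed at 0 in WT, limma adjusted p 0.144), and CCDC77, a coiled-coil protein gene (4.26 to 7.71 FPKM in K700E, listed at 0 in WT, adjusted p 0.368). On the other side stood ASGR1, the asialoglycoprotein receptor (listed at 0 in K700E, 3.09 to 13.8 FPKM in WT, adjusted p 0.507), and CD70, a ligand of the tumour necrosis factor family (listed at 0 in K700E, 0.726 to 8.01 FPKM in WT, adjusted p 0.766). ORMDL2, CCDC77, ASGR1 and CD70 were chosen after their values were seen.

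**Figure D1:**
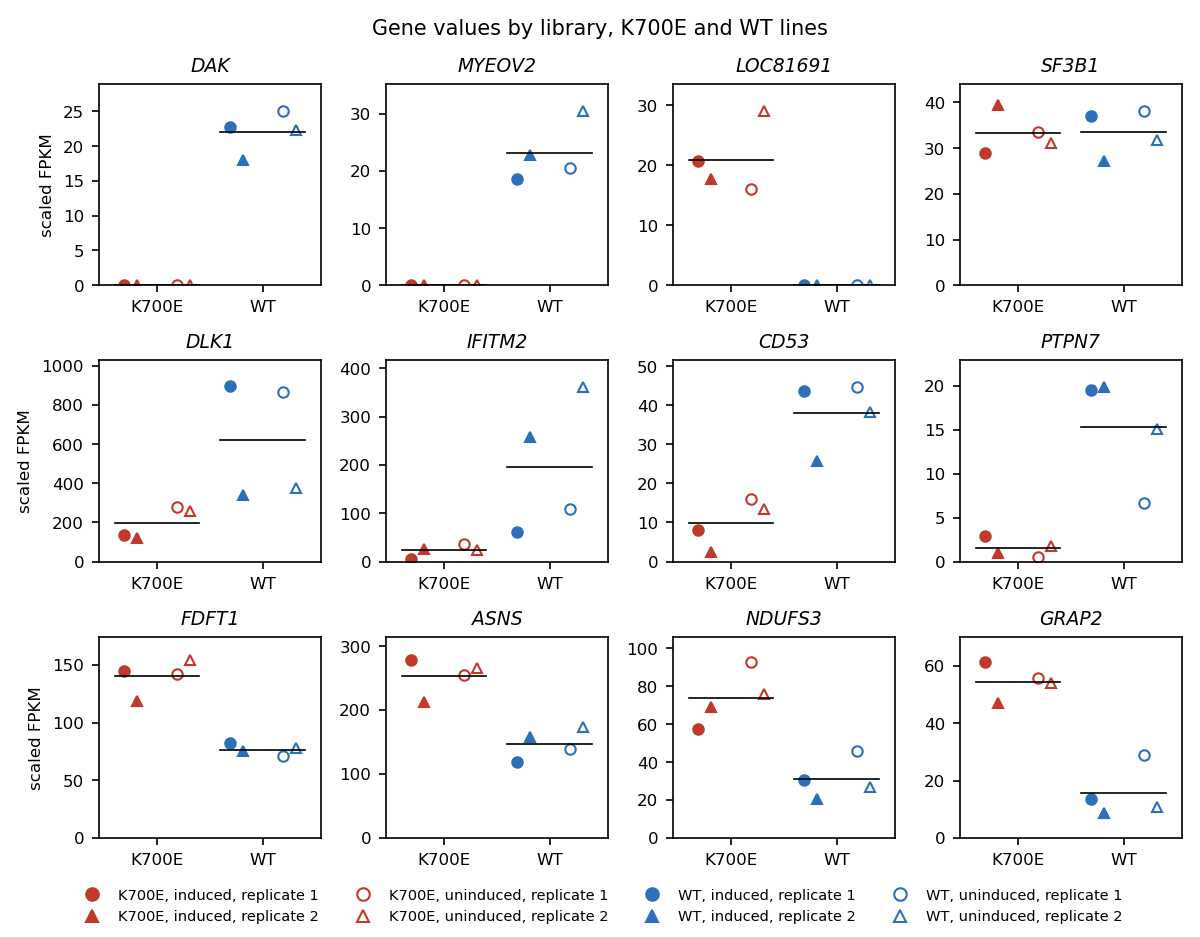
Scaled FPKM (linear axis from 0) of 12 genes in each library, with K700E in red and WT in blue, filled for induced and open for uninduced, circles for replicate 1 and triangles for replicate 2, and a line at each line's mean of 4. DAK and MYEOV2 lie at 0 in all 4 K700E libraries and LOC81691 in all 4 WT libraries, SF3B1 overlaps, and the other 8 genes do not overlap between the lines.

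Beyond these calls, 419 genes (3.69% of those tested) had 4 K700E libraries entirely on one side of the 4 WT libraries, 204 of them higher (1.8%) and 215 lower (1.89%) in K700E. With fragment numbers in place of FPKM 422 genes did so (3.72%), and 341 did so in the same direction by both (3%). Unadjusted p-values under 0.05 were held by 664 genes (5.85%). The genes named next had the smallest p among those without overlap, with at least 5 FPKM on average, values above 0 in every library and the same sign when only reference transcripts or fragment numbers were used. None of them passed limma's adjusted threshold, with adjusted p from 0.368 to 0.707, so their values are given as a description of these libraries. GRAP2, PGGHG and FAM160A2 overlapped between the lines both with fragment numbers and with reference transcripts only, and RGS14, CD53, CLN3 and SPNS1 overlapped with reference transcripts only.

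Among the genes on the higher side, FDFT1, which encodes squalene synthase, the first enzyme committed to sterols, was at 145 and 119 FPKM in induced K700E and 142 and 155 FPKM in uninduced K700E, against 82.1 and 75.2 FPKM in induced WT and 71.3 and 77.9 FPKM in uninduced WT. The lowest K700E library stood well clear of the highest WT library, and the log2 fold change was 0.86 (SE 0.18, limma adjusted p 0.507). ASNS, the asparagine synthetase gene and a target of the transcription factor ATF4, was at 278 and 213 FPKM in induced K700E and 255 and 266 FPKM in uninduced K700E, against 119 and 158 FPKM in induced WT and 138 and 174 FPKM in uninduced WT (log2 fold change 0.79, SE 0.18, adjusted p 0.691). CARS, the cysteinyl-tRNA synthetase, averaged 67.8 ± 14.9 FPKM in K700E and 33.6 ± 4.001 FPKM in WT (SD, n = 4 each; log2 fold change 0.98, SE 0.25). MYLIP, a ubiquitin ligase that sends the LDL receptor to degradation, was at 19.7 and 22.98 FPKM in induced K700E and 55.6 and 49.95 FPKM in uninduced K700E, against 9.83 and 10.4 FPKM in induced WT and 10.5 and 12.2 FPKM in uninduced WT. Its K700E libraries thus lay in 2 separate pairs by doxycycline state, both above WT, with an interaction of -1.13 on the log2 scale (limma adjusted p 0.999). With reference transcripts only the K700E libraries did not pair in this way (19.5 and 23.2 FPKM induced, 14.9 and 19.9 FPKM uninduced).

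NDUFS3, a core subunit of respiratory complex I, was at 57.6 and 68.9 FPKM in induced K700E and 93.0 and 76.2 FPKM in uninduced K700E, against 30.4 and 20.7 FPKM in induced WT and 46.1 and 26.7 FPKM in uninduced WT. That put every K700E library above every WT library, with nearly the same log2 difference between the induced lines (1.31) and the uninduced lines (1.25). GRAP2, an adaptor protein of blood cells that links receptors to downstream signalling, averaged 54.6 ± 5.80 FPKM in K700E and 15.5 ± 9.05 FPKM in WT (SD, n = 4 each; log2 fold change 1.93, SE 0.36, limma adjusted p 0.368). With reference transcripts only, GRAP2 was listed at 0 in 1 K700E library and in 2 WT libraries. ATP6V1D, a subunit of the vacuolar proton pump, was tight in K700E at 12.05 to 14.3 FPKM, against 1.01 to 6.99 FPKM in WT. NAB2, a corepressor of EGR factors, was at 13.2 to 38.8 FPKM in K700E and 4.19 to 9.91 FPKM in WT, and SARNP, an mRNA export factor that neighbours ORMDL2 on chromosome 12, was at 55.6 to 74.1 FPKM in K700E and 23.4 to 40.1 FPKM in WT. PGGHG, a glucosidase acting on collagen-bound sugars, was at 92.7 and 87.3 FPKM in induced K700E but only 30.8 and 39.5 FPKM in uninduced K700E, against 11.8 to 25.3 FPKM in WT. FAM160A2, part of an adaptor of endosome transport, was at 35.3 and 35.7 FPKM in induced K700E and 21.8 and 6.04 FPKM in uninduced K700E, against 2.84 to 5.95 FPKM in WT, where the lowest K700E library all but touched the highest WT library.

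Among the genes on the lower side, CD53, a leukocyte tetraspanin, was at 7.97 and 2.45 FPKM in induced K700E and 16.1 and 13.4 FPKM in uninduced K700E, against 43.6 and 25.6 FPKM in induced WT and 44.7 and 38.2 FPKM in uninduced WT (log2 fold change -2.11, SE 0.45, limma adjusted p 0.507). PTPN7, a tyrosine phosphatase of haematopoietic cells, was at 0.507 to 2.90 FPKM in K700E and 6.64 to 19.9 FPKM in WT (log2 fold change -3.00, SE 0.56). RGS14, a regulator of G-protein signalling, was at 8 to 19.9 FPKM in K700E and 30.7 to 68.5 FPKM in WT. IFITM2, an interferon-inducible membrane protein, was at 4.97 and 26.9 FPKM in induced K700E and 37.0 and 24.4 FPKM in uninduced K700E, against 60.9 and 257 FPKM in induced WT and 108 and 361 FPKM in uninduced WT. IFITM3, of the same family and chosen after its values were seen, went the other way in replicate 1. Its log2 difference was 3.29 in replicate 1 and -0.46 in replicate 2, and whether reads were divided between IFITM2 and IFITM3 was not tested. Of 15 interferon-inducible genes tested, 8 lay above 0 and 7 below. For IFITM2 the WT libraries of replicate 2 stood several times above those of replicate 1, so the spread within WT was wide. Chosen after its values were seen, LAPTM5, a lysosomal protein of blood cells, had the same shape, at 3.22 to 17.2 FPKM in K700E, against 19.5 and 30.5 FPKM in WT replicate 1 and 217 and 250.3 FPKM in WT replicate 2 (induced and uninduced). KYNU, the kynureninase gene, chosen likewise, was at 0 to 1.83 FPKM in K700E and 11.5 to 23.7 FPKM in WT, and shared with ORMDL2 the smallest limma adjusted p after the 3 called genes (0.144).

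DLK1, an imprinted gene for a membrane protein related to Notch ligands, had the highest level among the genes of the lower group other than RPL36. It was at 133 and 118 FPKM in induced K700E and 277 and 257 FPKM in uninduced K700E, against 896 and 339.7 FPKM in induced WT and 864 and 375 FPKM in uninduced WT (log2 fold change -1.61, SE 0.38, limma adjusted p 0.699). The K700E libraries paired by doxycycline state and the WT libraries by replicate number. COX14, an assembly factor of cytochrome c oxidase, was at 2.85 to 12.6 FPKM in K700E and 21.8 to 35.5 FPKM in WT. RPL36, a protein of the large ribosomal subunit, was at 799 to 996 FPKM in K700E and 1270 to 1712 FPKM in WT. CLN3, a lysosomal membrane protein lost in juvenile Batten disease, was at 2.86 to 13.6 FPKM in K700E and 24.9 to 66.9 FPKM in WT, and SPNS1, a lysosomal transporter, was at 20.9 to 33.4 FPKM in K700E and 38.8 to 80.6 FPKM in WT. SLC7A5P1, a pseudogene of the amino acid transporter gene SLC7A5 and so uncertain where reads are shared with its parent, was at 0.0387 to 1.29 FPKM in K700E and 4.11 to 34.5 FPKM in WT. With reference transcripts only, the log2 fold change came to -0.14 for RGS14, -0.69 for CD53, -0.86 for CLN3, 0.93 for FAM160A2 and 0.87 for MYLIP, while it came to -2.35 for SPNS1 and 2.39 for PGGHG. With fragment numbers PGGHG came to 0.69.

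Whether the difference between the lines was the same with and without doxycycline was first asked gene by gene through the interaction. It called 2 genes (0.0176% of those tested), both non-coding RNAs shorter than 100 nt and both listed at 0 in 6 libraries. MIR4461, a microRNA precursor of 74 nt, was at 62696 and 65837 FPKM in induced K700E and listed at 0 in the other 6 (interaction 16.97, SE 0.73, limma adjusted p 0.00013). VTRNA1-3, a vault RNA of 88 nt, was listed at 0 in all 4 K700E libraries and in uninduced WT, and at 572820 and 31928 FPKM in induced WT (interaction -18.0, SE 1.62, adjusted p 0.0199). FPKM of so short a model divides by its length, and the scale of these values is not that of an mRNA. An unadjusted p under 0.05 was held by 481 genes (4.23%), and none of the genes without overlap named above passed the adjusted threshold.

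The question was then put over all genes, by comparing the line difference in 4 of the libraries with that in the other 4. Over the 8773 genes above 0 in all libraries, the difference between the induced lines and the difference between the uninduced lines, which share no library, had a Pearson correlation of 0.074 and a Spearman correlation of 0.071, and 53.4% of genes had the same sign. Split instead by replicate number, the differences correlated at 0.005 (Pearson) and -0.009 (Spearman), with 49.4% of the same sign. Among the 3595 genes with a mean of at least 20 FPKM, the r was 0.124 by doxycycline and 0.016 by replicate number. Genes are not independent, and these values are a description across genes with no p. The line difference of a gene in 4 libraries thus told little of its difference in the other 4, whichever way they were divided.

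**Figure D2:**
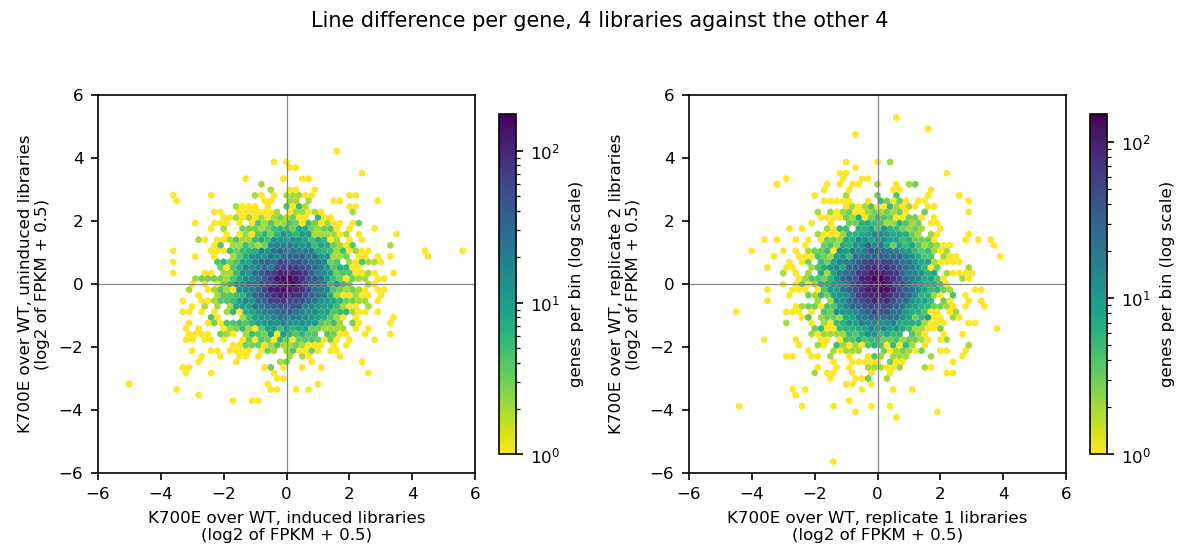
Log2 difference of K700E over WT per gene for the 8773 genes above 0 in all libraries, induced against uninduced libraries at left (r 0.074) and replicate 1 against replicate 2 libraries at right (r 0.005), where colour gives the number of genes in a bin on a log scale. Both clouds are centred near 0 and show no clear slope.

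Replicate 1 was set against replicate 2 within each line. Over the 8773 genes, the difference of replicate 1 from replicate 2 correlated between the doxycycline states of K700E at an r of 0.042 and between those of WT at 0.097, and over the 3595 genes with a mean of at least 20 FPKM at 0.042 in K700E and 0.161 in WT. Over the 664 genes with a mean of at least 100 FPKM, it correlated at 0.047 in K700E and 0.411 in WT, while between the lines the r lay from -0.168 to -0.055. The 2 WT libraries that share a number thus resembled each other at high expression, and the number did not align the lines. A term for line by replicate number called 0 genes by limma, with 733 at an unadjusted p under 0.05.

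Several globin genes differed between replicates in both lines, in opposite directions. HBZ, the embryonic zeta globin, was at 1404 and 2366 FPKM in induced K700E and 1462 and 2442 FPKM in uninduced K700E, against 2168 and 876 FPKM in induced WT and 2457 and 916 FPKM in uninduced WT (replicates 1 and 2 in each pair). Replicate 1 put K700E below WT and replicate 2 put it above, with log2 differences of -0.69 and 1.42, and the 4-against-4 difference of 0.37 (SE 0.38, limma adjusted p 0.896) averaged over both. HBE1, the embryonic epsilon globin, turned in the same way, at 453 and 1407 FPKM in induced K700E and 584 and 2352 FPKM in uninduced K700E, against 847 and 349 FPKM in induced WT and 1088 and 279 FPKM in uninduced WT. The log2 differences were -0.90 in replicate 1 and 2.54 in replicate 2, and limma's adjusted p for the change with replicate number was 0.101 for both HBZ and HBE1. HBA1, an adult alpha globin gene, had -0.15 and 1.33.

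The fetal gamma globins kept their direction. HBG1 was at 1764 and 2579 FPKM in induced K700E and 2324 and 3341 FPKM in uninduced K700E, against 1144 and 1922 FPKM in induced WT and 1041 and 2121 FPKM in uninduced WT (log2 fold change 0.72, SE 0.28, limma adjusted p 0.835). HBG2 averaged 3726 ± 926 FPKM in K700E and 2172 ± 732 FPKM in WT (SD, n = 4 each; log2 fold change 0.81, SE 0.26, adjusted p 0.814). Within each replicate number and each doxycycline state K700E was above WT for both genes, although the 4 and 4 libraries overlapped, since WT replicate 2 reached the level of K700E replicate 1. HBG1 and HBG2 are near-identical copies between which reads may have been divided. In all, 7 of 8 tested globin genes lay above 0 (median 0.59), with a median of -0.26 in replicate 1 and 1.27 in replicate 2, where the median of all genes was 0.02.

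Around the globins, ALAS2, the first enzyme of heme synthesis in erythroid cells, was at 43.8 and 64.3 FPKM in induced K700E and 28.8 and 46.5 FPKM in uninduced K700E, against 17.8 and 27.3 FPKM in induced WT and 28.7 and 16.6 FPKM in uninduced WT. The lines did not overlap, if only just, and the log2 fold change was 0.99 (SE 0.32, limma adjusted p 0.814). Of 25 red cell membrane and surface genes, 16 lay above 0 (median 0.21), and 4 had K700E wholly above WT, as did 1.8% of all genes: GYPC, glycophorin C (178 to 285 FPKM in K700E, 121 to 152 FPKM in WT), SLC4A1, the band 3 anion exchanger (7.38 to 10.6 FPKM in K700E, 0.812 to 4.60 FPKM in WT), SPTB, beta spectrin (25.8 to 50.6 FPKM in K700E, 13.6 to 22.02 FPKM in WT), and EPB41, protein 4.1 (76.3 to 88.2 FPKM in K700E, 55.04 to 68.6 FPKM in WT). BSG, basigin, lay wholly below (223 to 261 FPKM in K700E, 271 to 352 FPKM in WT). The median of these 25 was -0.15 in replicate 1 and 0.32 in replicate 2, and SPTB turned to -2.49 with reference transcripts only. With fragment numbers the lines overlapped for ALAS2, SPTB and EPB41. The median of the 25 was 0.22 in the induced and -0.01 in the uninduced libraries. Of 22 erythroid transcription factors 9 lay above 0 (median -0.04), and the 2 lists were not tested against each other. GATA1 was at 224.8 to 303 FPKM in K700E and 211 to 301 FPKM in WT, TAL1 at 24.1 to 47.4 FPKM in K700E and 24.7 to 34.9 FPKM in WT, and KLF1 at 74.5 to 120.2 FPKM in K700E and 43.5 to 168 FPKM in WT, all overlapping. LMO2, a bridging protein of the GATA1 and TAL1 complex, was at 18.8 to 36.2 FPKM in K700E and 7.82 to 25.1 FPKM in WT (log2 fold change 1.05, SE 0.38, limma adjusted p 0.826), with a log2 fold change of 2.97 from reference transcripts only.

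**Figure D3:**
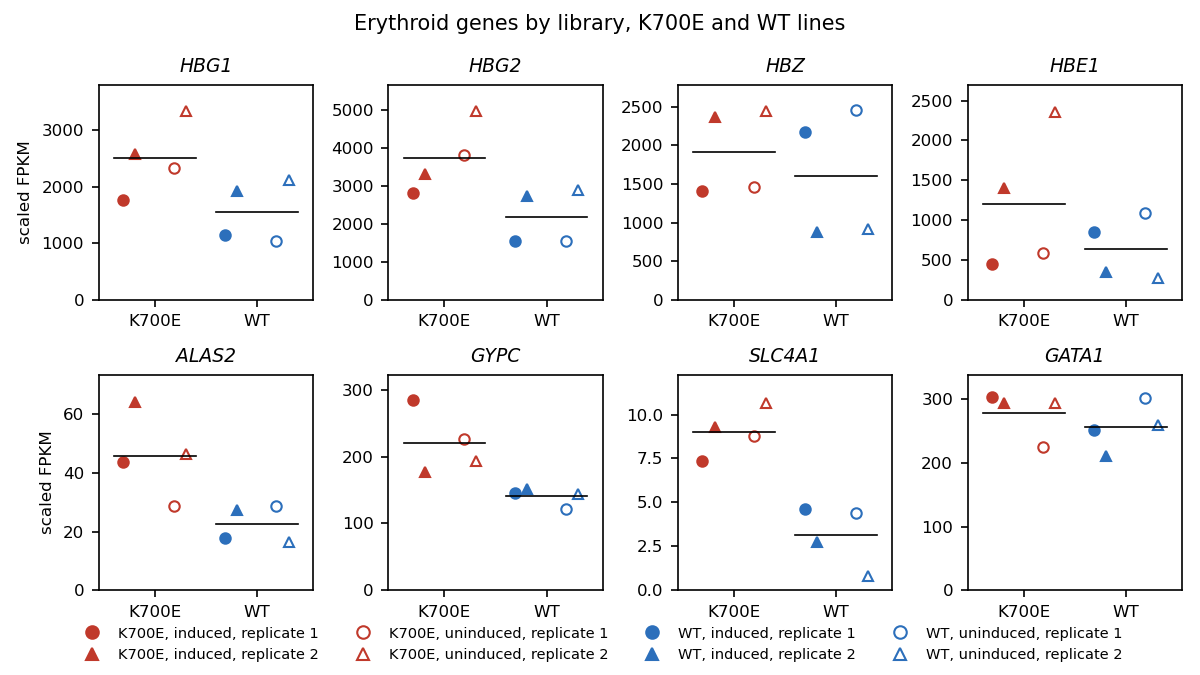
Scaled FPKM (linear axis from 0) of 8 erythroid genes by library, with K700E in red and WT in blue, filled for induced and open for uninduced, circles for replicate 1 and triangles for replicate 2, and a line at the mean of 4. For HBZ and HBE1 replicate 2 lies above replicate 1 in K700E and below it in WT, ALAS2, GYPC and SLC4A1 do not overlap, and GATA1 overlaps.

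Among markers of neighbouring blood lineages, the myeloid and megakaryocyte sums also differed between the WT replicates, though not every marker did and the lymphoid sum overlapped. The 19 myeloid markers summed to 41.0 to 99.9 FPKM in K700E, against 66.4 and 107 FPKM in WT replicate 1 and 131 and 143 FPKM in WT replicate 2, with 9 of the 19 at 0 in all libraries. SPI1, the myeloid and B-cell transcription factor PU.1, was at 8.99 to 29.5 FPKM in K700E, against 10.6 and 29.1 FPKM in WT replicate 1 and 49.4 and 82.0 FPKM in WT replicate 2. CD68, another myeloid marker, did not part the WT replicates, at 10.8 and 35.0 FPKM in replicate 1 and 28.9 and 22.2 FPKM in replicate 2. It was at 3.26 to 26.4 FPKM in K700E. How far the myeloid sum rests on SPI1 was not tested. The 17 megakaryocyte markers summed to 102 to 443 FPKM in K700E, against 447 and 440.4 FPKM in WT replicate 1 and 94.0 and 70.3 FPKM in WT replicate 2. The 14 lymphoid markers summed to 19.5 to 74.8 FPKM in K700E. In WT they summed to 38.6 and 56.5 FPKM in replicate 1 and 25.4 and 44.9 FPKM in replicate 2. Of the tested members, 1 of 5 myeloid markers and 3 of 7 megakaryocyte markers lay above 0, and 1 of 3 lymphoid markers did. The part of these shifts in the lower IFITM2, LAPTM5, CD53 and PTPN7 values was not tested. The log2 difference of CD53 was -1.91 in replicate 1 and -2.31 in replicate 2, and that of PTPN7 was -2.69 and -3.31. In bulk libraries fewer cells of a type and less RNA per cell cannot be told apart.

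By fixed list, no member of the 28 lists passed limma's adjusted threshold, against 0.0264% of all genes, and lists are therefore described by direction. The integrated stress response, the ATF4 programme that follows phosphorylation of eIF2 alpha, leaned to K700E: 24 of 29 tested members lay above 0 with a median of 0.19, where 5841 of all 11359 genes did with a median of 0.02. Its members summed to 3130 and 2882 FPKM in induced K700E and 2700 and 2855 FPKM in uninduced K700E, against 2658 and 2200 FPKM in induced WT and 2640 and 2606 FPKM in uninduced WT. The lowest K700E sum lay just above the highest WT sum, and of 28 list sums this was the 1 without overlap, where 3.69% of all genes had none. The median was above 0 in both doxycycline states (0.34 induced, 0.15 uninduced) and both replicate numbers (0.13 and 0.28). ASNS was the member without overlap, and ATF3, a stress-induced transcription factor, was at 10.2 to 39.9 FPKM in K700E and 0 to 11.4 FPKM in WT. ATF4 itself overlapped (291 to 407 FPKM in K700E, 319 to 385 FPKM in WT).

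Cholesterol synthesis leaned the same way, with 20 of 25 members above 0 and a median of 0.27. K700E lay wholly above WT for 4 of the 25, as it did for 1.8% of all genes. Besides FDFT1 these included DHCR7, a reductase of the last steps of the pathway (98.3 to 142 FPKM in K700E, 67.1 to 95.6 FPKM in WT), and SREBF2, the transcription factor that drives it (97.4 to 111 FPKM in K700E, 78.8 to 91.5 FPKM in WT). The limma adjusted p of FDFT1, DHCR7 and SREBF2 ran from 0.507 to 0.885, and SREBF2 overlapped between the lines with fragment numbers. STARD4, a sterol carrier, was at 11.4 to 58.4 FPKM in K700E and 0 to 13.1 FPKM in WT, and its log2 fold change of 3.19 came to 0.62 with reference transcripts only. ACAT2, the cytosolic thiolase at the head of the pathway, went against the list, listed at 0 in both induced K700E libraries and at 30.7 and 27.6 FPKM in uninduced K700E, against 45.8 and 22.3 FPKM in induced WT and 42.1 and 18.4 FPKM in uninduced WT.

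The large sets of housekeeping genes lay near 0. Of 79 cytosolic ribosomal protein genes 59 lay above 0, with a median of 0.09 that was 0.29 in replicate 1 and -0.08 in replicate 2. RPL10 was at 814 and 795 FPKM in induced K700E and 1931 and 2004 FPKM in uninduced K700E, against 571 and 539.9 FPKM in induced WT and 645 and 724 FPKM in uninduced WT (log2 fold change 1.03, SE 0.21, limma adjusted p 0.507). It has many processed pseudogenes, and with reference transcripts only its difference turned to -0.23. Among 75 nuclear-encoded subunits and factors of the respiratory chain, 46 lay above 0 (median 0.14), and 4 had K700E wholly above WT, NDUFS3, NDUFA5, ATP5B and COX6A1, while 0 lay wholly below (1.8% and 1.89% of all genes). COX14, the assembly factor that lay wholly below WT, is not among these 75. ATP5B, the beta subunit of the ATP synthase, was at 437 to 538 FPKM in K700E and 310.1 to 412 FPKM in WT, and COX6A1, a subunit of cytochrome c oxidase, at 466 to 597 FPKM in K700E and 354 to 447 FPKM in WT.

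Metallothioneins, small proteins that bind zinc and copper, leaned the other way, with all 4 tested members below 0 and a median of -2.40. MT1X was at 0, 18.8, 28.8 and 0 FPKM in K700E (induced replicates 1 and 2, then uninduced), against 18.7, 78.1, 48.0 and 59.1 FPKM in WT, with overlap. MT2A was listed at 0 in both induced K700E libraries and at 26.2 and 49.6 FPKM in uninduced K700E, against 59.4 and 197 FPKM in induced WT and 132 and 4.90 FPKM in uninduced WT, so that its sign turned in the uninduced libraries (0.45). Their models are 396 to 441 nt long and 2 of the 4 were at 0 in 4 libraries or more. Keratin genes KRT8 and KRT18, expressed in K562 cells though known from epithelia, were at 304 to 611 and 261 to 513 FPKM in K700E, against 219.9 to 365 and 170.4 to 284 FPKM in WT, with overlap, and were highest in uninduced K700E.

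**Figure D4:**
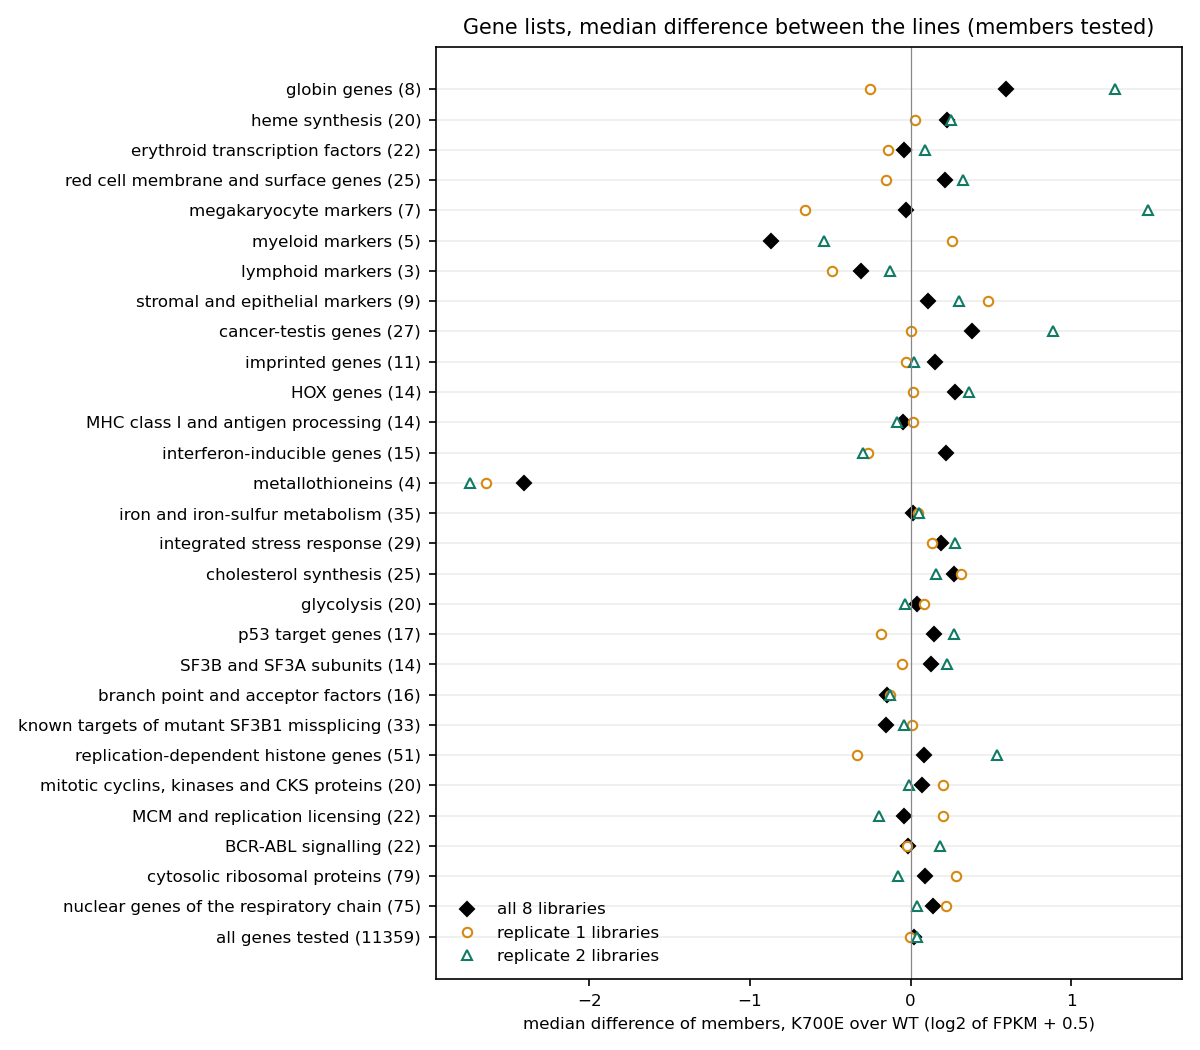
Median log2 difference of K700E over WT for the tested members of 28 gene lists and for all genes, from all 8 libraries (black), replicate 1 libraries (orange) and replicate 2 libraries (green), with the number of members tested in brackets. The globin, megakaryocyte, myeloid and histone lists lie on opposite sides of 0 in the 2 replicates, while the integrated stress response, cholesterol synthesis and metallothionein lists lie on one side in both.

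Genes of the splicing machinery and the known targets of mutant SF3B1 did not stand apart. Of 14 genes for SF3B and SF3A subunits 9 lay above 0 (median 0.13), and SF3B3 was the one without overlap, at 24.9 to 26.8 FPKM in K700E and 29.2 to 67.4 FPKM in WT (limma adjusted p 0.861), although with reference transcripts only its difference was 0.05. SF3A2 was at 98.6 to 134 FPKM in K700E and 129.6 to 185 FPKM in WT, with overlap. Of 33 tested genes known to be misspliced with mutant SF3B1, 15 lay above and 18 below 0 (median -0.16), and HINT2, a mitochondrial nucleotide hydrolase, was the one without overlap, at 33.4 and 8.46 FPKM in induced K700E and 10.3 and 1.32 FPKM in uninduced K700E, against 59.95 and 53.8 FPKM in induced WT and 41.9 and 71.7 FPKM in uninduced WT (log2 fold change -2.68, limma adjusted p 0.699). With reference transcripts only HINT2 came to -1.60 and overlapped between the lines. Of all tested genes 3.69% had no overlap, the share beside which SF3B3 among 14 and HINT2 among 33 stand.

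Splice site choice was read from 1275 pairs of acceptors that lie at most 50 nt apart behind the same donor. Limma called 0 of them (0%), with 53 at an unadjusted p under 0.05 (4.16%). The smallest adjusted p was 0.286, which SORT1, TPD52L2 and ATP2A3 had among others. In SORT1, a sorting receptor gene, the upstream acceptor of a pair 3 nt apart took 100%, 100%, 100% and 23.6% in K700E, against 10.5%, 12.5%, 0% and 0% in WT (induced replicates 1 and 2, then uninduced). In ATP2A3, a calcium pump of the endoplasmic reticulum, the upstream acceptor of a pair 3 nt apart took 0%, 47.6%, 74.9% and 63.6% in K700E, against 100% in each WT library. Both pairs are between sites present in the reference, and most shares stand at 0% or 100%, as whole transcripts were credited to one site.

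The pairs of BRD9 and MAP3K7, known targets of mutant SF3B1, overlapped between the lines. In BRD9, a subunit of a chromatin remodelling complex, the upstream acceptor of a reference pair 5 nt apart took 0%, 25.1%, 0% and 61.0% in K700E, against 100%, 100%, 100% and 0% in WT. Whether this pair is the BRD9 event known with mutant SF3B1 was not examined, so it does not show that event to be present or absent. In MAP3K7, the kinase TAK1, an upstream acceptor 20 nt before the reference site was found in 1 library, WT induced replicate 1, at 92.8%, and at 0% in all 4 K700E libraries. Across isoforms, 24554 transcripts of 7586 genes were tested as a share of their gene, and limma called 0 (0%), with 799 at an unadjusted p under 0.05 (3.25%). The smallest p belonged to an isoform of DTNBP1, the dysbindin gene, with 7 introns, which took 0% of the gene in all 4 K700E libraries and 100% in all 4 WT libraries (limma adjusted p 0.83). An isoform of MCM7, a helicase subunit of replication licensing, with 14 introns took 100% in all 4 K700E libraries, against 58.5%, 58.6%, 66.4% and 20.2% in WT (adjusted p 0.83).

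Values were next compared over neighbouring genes along the chromosomes. Each gene was centred on its own mean, and the median over about 50 consecutive tested genes was taken in each library. Of 225 such windows limma called 2 (0.889%), with 22 at an unadjusted p under 0.05 (9.78%) and 9 without overlap (4%). In the first, 51 genes whose left ends lie between 22019456 and 29624424 on chromosome 16 of hg19, the median was -0.39 and -0.29 in induced K700E and -0.31 and -0.19 in uninduced K700E, against 0.11 and -0.12 in induced WT and 0.30 and 0.44 in uninduced WT. All 4 K700E libraries lay below all 4 WT libraries (log2 difference -0.48, SE 0.09, limma adjusted p 0.0111). In this window 36 of 51 genes were below 0 and 8 had K700E wholly below WT (15.7% of the window, where 1.89% of all genes did so): KIAA0556, CLN3, APOBR, SULT1A1, EIF3C, NFATC2IP, SPNS1 and SLC7A5P1. These counts come from the same values that called the window and add no support to the call. EIF3C, a subunit of the translation initiation factor eIF3, was at 124 to 174 FPKM in K700E and 210.3 to 254 FPKM in WT. SULT1A1 and EIF3C have near-identical copies in the same band, between which reads may have been divided.

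In the other window, 51 genes whose left ends lie between 20385231 and 45907047 on chromosome 11, the median was -0.02 and 0.32 in induced K700E and 0.29 and 0.39 in uninduced K700E, against -0.31 and -0.17 in induced WT and -0.10 and -0.12 in uninduced WT (log2 difference 0.42, SE 0.09, limma adjusted p 0.0171). Here 36 of 51 genes were above 0, and 2 had K700E wholly above WT (3.92% of the window, where 1.8% of all genes did so), CSTF3 and MAPK8IP1. These counts too come from the values that called the window. CSTF3, a subunit of the cleavage stimulation factor, was at 25.4 to 43.3 FPKM in K700E and 2.51 to 17.7 FPKM in WT. Neither call survived every choice. Leaving out uninduced K700E replicate 1 or replicate 2 ended both, and leaving out induced WT replicate 1 or induced K700E replicate 2 ended that on chromosome 11, while the differences stayed between -0.55 and -0.42 and between 0.36 and 0.49. Among genes above 0 in all libraries the windows closest to these had -0.29 and 0.28 (adjusted p 0.119 and 0.129). With fragment numbers in place of FPKM, 50 of the 51 genes on chromosome 16 gave -0.48 and all 51 on chromosome 11 gave 0.32, where the lines overlapped. Windows laid anew over fragment numbers were not called at either place: those sharing most genes had 0.03 (adjusted p 0.94, 26 genes shared) on chromosome 16 and 0.35 (adjusted p 0.177, 39 genes shared) on chromosome 11. With reference transcripts only, 49 and 50 of these genes gave -0.22 and 0.33, and the lines overlapped in both.

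Other stretches separated the WT libraries by replicate number. In the window from 54638027 to 77747662 on chromosome 1 the median was 0.14 to 0.34 in K700E, against -0.34 and -0.43 in WT replicate 1 and 0.04 and 0.00 in WT replicate 2 (adjusted p 0.0975). When both WT libraries of replicate 2 were left out, 16 windows were called in place of 2, and the chromosome 16 and 11 windows kept their direction (-0.50 and 0.45). Over whole chromosomes none of 23 passed (0%), with a smallest p of 0.0286 that 4 against 4 libraries allow in an exact two-sided permutation test. At that floor a chromosome shifted alone could not pass after adjustment over 23, so no conclusion is drawn from this count. Chromosome 3 was the one without overlap (4.35% of chromosomes), with a mean of -0.02 in K700E and 0.03 in WT (exact permutation p 0.0286, adjusted p 0.438).

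**Figure D5:**
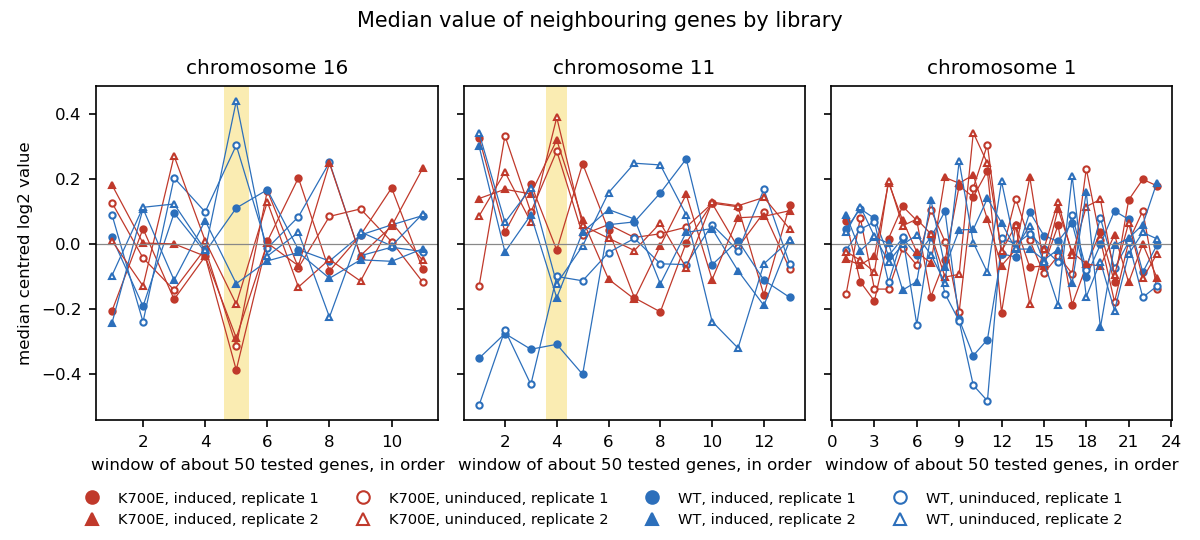
Median centred log2 value of about 50 neighbouring tested genes per library along chromosomes 16, 11 and 1 in window order, with K700E in red and WT in blue, filled for induced and open for uninduced, circles for replicate 1 and triangles for replicate 2, and shading on windows past limma's adjusted threshold. In the shaded windows K700E lies below WT on chromosome 16 and above it on chromosome 11, and in the chromosome 1 window from the text the WT libraries of replicate 1 lie lowest.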

How the data were processed

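The authors deposited FPKM per transcript. CASAVA, TopHat and Cufflinks, with the build hg19, are named in the submitters' processing notes without versions. Total RNA was depleted of ribosomal RNA by an RNase H method, per the labels' protocols. All reference transcripts were summed per gene with assembled ones of 300 nt or more, which went to the gene sharing most introns or, if unspliced, to an unspliced gene under 90% mutual cover. Libraries were scaled by median ratios over 7578 genes. Genes with a mean of at least 1 FPKM were put on the scale log2(FPKM + 0.5) and fitted by limma 3.58.1 in R 4.3.3 (trend, line plus doxycycline, all 8 libraries, Benjamini-Hochberg adjustment, threshold 0.05). Fold changes on that scale understate low genes. Acceptor pairs and isoform shares used log2 ratios with the same fit, and windows used 50 genes. Tables and figures were made with Python 3.11.15, pandas 2.3.3 and matplotlib 3.10.9. The fits were tested on simulated data. Cufflinks estimates how reads divide among overlapping transcripts, so a gene can be listed at 0 by assignment alone. For long reference transcripts of moderate level the deposited interval had a half-width of 6.16% to 6.94%, an error within a library only.

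Genes were named by rule: SF3B1, genes past the threshold, then up to 12 a direction by smallest p without overlap, with a mean of at least 5 FPKM, above 0 in all libraries and with one sign across 3 ways of summing, up to 3 members per list with an unadjusted p under 0.05, and 8 genes always. The members and the lists were chosen with earlier results of these data known. Alternatives covered the pseudocount, the filter, scaling, transcripts summed, model terms, sets of 4 libraries and each library left out. The names of the deposited tables hold a code with the form of a sequencing lane, one for replicate 1 and another for replicate 2, so lane and number cannot be told apart. A few results that the naming rule selects are not reported here.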

Additional observations from a re-analysis of the deposited data

Results flagged for a closer look

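In 118 groups of 4 libraries of the named genes, 5 had 1 library far from the other 3, where chance flags about 1 in 20 groups. SARNP was at 74.1 FPKM in K700E induced replicate 2 and at 55.6 to 58.7 FPKM in the other K700E libraries. HSCB, a cochaperone of iron-sulfur cluster assembly, was at 3.38 FPKM in K700E uninduced replicate 1 and at 0 to 0.0709 FPKM in the others. SPTB was at 50.6 FPKM in K700E uninduced replicate 1 and at 25.8 to 28.5 FPKM in the others. HIST1H4D, a replication-dependent histone gene, was at 325 FPKM in WT induced replicate 1 and at 52.5 to 92.0 FPKM in the other WT libraries. GATA1 was at 225 FPKM in K700E uninduced replicate 1 and at 294 to 303 FPKM in the others.

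The difference between the lines changed with doxycycline for 2 short RNAs by the test of the interaction: MIR4461 at 17 on the log2 scale and VTRNA1-3 at -18, both listed at 0 in 6 libraries.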

How the results depend on the processing

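Precision is limited by 4 libraries a side, by assignments of 0 and by depth that is known only as coverage per FPKM. Calls between the lines, 3 as reported, were 0 by limma with a mean of 5 FPKM or more, with genes above 0 in all libraries, in the uninduced libraries and in either replicate number alone (500 to 622 genes at an unadjusted p under 0.05), 5 without a trend, 1 without both WT libraries of replicate 2 (chosen after seeing the data), and 0 to 3 with each library left out. DAK and MYEOV2 kept their call in 2 of those 8 fits (adjusted p 0.0413 to 0.0936) and LOC81691 in 0 (0.0615 to 0.13). The filter to genes above 0 in all libraries leaves out the 3 called genes before any test, so their calls could not be kept there. The filter to a mean of 5 FPKM or more kept the 3 genes in the test, and none passed. There limma's adjusted p was 0.145 for DAK and MYEOV2 and 0.161 for LOC81691. With the replicate block, whose numbers the labels do not call a batch (replicate differences correlated between groups from -0.031 to 0.084), calls were 3, the same genes, as they were with libraries of one line and number taken as correlated (estimate 0.0103, chosen after seeing the data). Interaction calls, 2 as reported, were 15 without a filter, 0 with fragment numbers and 0 to 3 with each library left out. Acceptor pairs gave 0 to 1 calls on leaving out a library. Window calls, 2 as reported, were 1 with genes above 0 in all libraries, 0 with reference transcripts only, 1 with fragment numbers, 4 with the replicate block, 1 with windows of 25 genes, 16 without both WT libraries of replicate 2, and 0 to 10 with each library left out.

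Signs turned for 10 of 59 named genes, and the cause was not tested. With reference transcripts only RPL10 was at -0.231, SPTB at -2.488, GATA1 at -0.084 and TAL1 at -1.432. In the uninduced libraries ACAT2 was at 0.061, MT2A at 0.449, GATA1 at -0.122 and TAL1 at -0.282. In replicate 1 GATA1 was at -0.078, HBZ at -0.687 and HBE1 at -0.901, and in replicate 2 SF3B1 was at 0.25 and KLF1 at -0.313. SF3B1 was at 0.091 in the induced libraries and at 0.002 unscaled. On leaving out each library SF3B1 ran from -0.113 to 0.066, KLF1 from -0.318 to 0.455 and TAL1 from -0.009 to 0.321.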
